A study of Mus musculus with 4 samples.

Results

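The genes described here let the intestine digest and absorb sugar: the disaccharidase genes Mgam, Lct, Treh and Sis, the sugar transporter genes Slc5a1, Slc2a1, Slc2a2 and Slc2a5, and Khk, the gene of the enzyme that starts fructose use. All probe sets whose annotation names exactly 1 gene were searched for these 9 symbols, which gave 11 probe sets of 45101 on the array, for 8 genes of 18193 measured. Sis was not analysed here. All 11 probe sets passed the filter on dim signal, which kept 22519 probe sets. Transcripts were measured in mouse intestinal crypts cut out by laser capture microdissection, with 2 arrays of crypts carrying a tamoxifen-induced deletion of beta-catenin and 2 arrays of control crypts, both labelled day 2. The RNA was amplified in 2 rounds and each array came from its own sample. The Cre driver, strain, age, gut segment and tamoxifen treatment of the controls are not stated in the labels, nor whether each sample stands for another mouse. Spread between the samples of a group may thus be technical, and the p-values measure no more than that spread. An exact permutation test of 2 against 2 arrays cannot go below a two-sided p of 0.333.

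Dietary sugars reach the absorptive cell as disaccharides and short glucose chains, which enzymes anchored in the brush border split into single sugars. Glucose and galactose enter through the sodium-coupled transporter SGLT1 and fructose through GLUT5, and GLUT2 carries sugars across the basal side into the blood. These proteins belong to mature absorptive cells of the villus, and their genes are switched on as cells leave the crypt. CDX and GATA factors are known to act on promoters of this group, among them those of Sis and Lct, and beta-catenin acts on genes through TCF/LEF factors.

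The promoters of 4 members are shown because their array profiles differ: on the normalized scale, replicate 1 exceeded replicate 2 in both groups for Lct, Slc5a1 and Slc2a2, and in the controls only for Mgam. Sequences are from RefSeq (GRCm38.p6), which held all 9 genes, and each window runs from 250 bases before to 50 bases after the annotated start, 5′ to 3′ on the gene's strand. Capitals mark TTTAT, a core bound by CDX factors, and AGATAA, a core bound by GATA factors, on either strand. The Mgam window is chr6:40628581-40628880 (+ strand), Lct chr1:128328269-128328568 (− strand), Slc5a1 chr5:33103969-33104268 (+ strand) and Slc2a2 chr3:28697653-28697952 (+ strand).
Mgam: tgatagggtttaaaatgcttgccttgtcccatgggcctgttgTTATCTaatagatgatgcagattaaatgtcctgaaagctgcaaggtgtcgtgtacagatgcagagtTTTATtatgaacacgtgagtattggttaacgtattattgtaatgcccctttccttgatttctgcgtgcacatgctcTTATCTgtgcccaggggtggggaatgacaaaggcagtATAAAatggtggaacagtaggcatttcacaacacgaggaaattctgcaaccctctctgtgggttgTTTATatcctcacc
Lct: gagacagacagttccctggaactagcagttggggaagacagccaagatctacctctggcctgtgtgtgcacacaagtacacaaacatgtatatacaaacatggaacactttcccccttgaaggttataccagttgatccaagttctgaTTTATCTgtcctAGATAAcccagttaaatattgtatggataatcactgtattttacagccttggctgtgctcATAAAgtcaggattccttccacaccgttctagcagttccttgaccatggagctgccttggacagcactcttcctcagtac
Slc5a1: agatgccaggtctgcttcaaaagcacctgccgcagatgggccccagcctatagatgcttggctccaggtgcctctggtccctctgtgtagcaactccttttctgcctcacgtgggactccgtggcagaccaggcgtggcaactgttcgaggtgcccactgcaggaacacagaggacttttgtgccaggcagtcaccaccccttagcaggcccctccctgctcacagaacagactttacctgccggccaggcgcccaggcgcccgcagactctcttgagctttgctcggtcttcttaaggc
Slc2a2: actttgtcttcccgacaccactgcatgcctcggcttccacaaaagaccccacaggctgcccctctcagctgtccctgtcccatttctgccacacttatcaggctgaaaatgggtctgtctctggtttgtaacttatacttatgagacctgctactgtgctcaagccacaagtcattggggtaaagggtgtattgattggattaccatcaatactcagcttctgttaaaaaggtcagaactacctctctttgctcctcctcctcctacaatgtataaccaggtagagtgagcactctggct

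Mgam held 3 TTTAT and 2 AGATAA matches, and Lct held 2 of each. In Lct a TTTAT and an AGATAA match overlap, and in Mgam 2 of the TTTAT matches overlap TATAAA. Slc5a1 and Slc2a2 had no match to either. Over the 9 member windows, TTTAT was found in 4 (Sis, Mgam, Lct and Slc2a1), against 40% of all 32851 promoter windows, and AGATAA in 2 (Mgam and Lct), against 11.2%. The TCF/LEF core in the form CTTTGA was found in 0 of the 9, against 16% of all windows. Only this form was searched, and CTTTGT was not counted. Of the windows shown above, that of Slc2a2 holds CTTTGT, and that of Mgam holds it on the opposite strand. The E box CACGTG, a core of sites for the glucose-responsive factor ChREBP, was found in Mgam, Slc5a1 and Khk, against 7.15% of all windows. A match is a description of the letters and not a binding site.

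No member passed the test between mutant and control crypts. Of the 11 probe sets 8 were higher and 3 lower in the mutants by their group means, where 49.8% of all kept probe sets were higher. The number higher was 4 of 11 without mutant replicate 1 or without control replicate 2, and 11 of 11 without mutant replicate 2 or without control replicate 1. By limma with Benjamini-Hochberg adjustment 0 of 11 passed over all probe sets, against 0% of the 22519 tested. At an unadjusted limma p under 0.05 the count was 0 of 11 for the members and 1415 of 22519 over all tested probe sets. With 11 probe sets a count of 0 does not set the members apart from that share. The median difference was 0.43 on the log2 scale for the members and -0.00 over all kept probe sets, and with an array left out the member median lay between -0.35 and 1.02. In 1 of 11 probe sets, that of Khk, the groups did not overlap, with the mutants above the controls. All kept probe sets did so in 17.3% of cases in that direction and in 36.2% in either direction. Changes below are mutant minus control on the scale log2(intensity + 5) after quantile normalization, on which the change of a dim probe set is understated. Since whole crypts were captured, fewer cells of a type and less RNA per cell cannot be told apart.

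**Figure D1:**
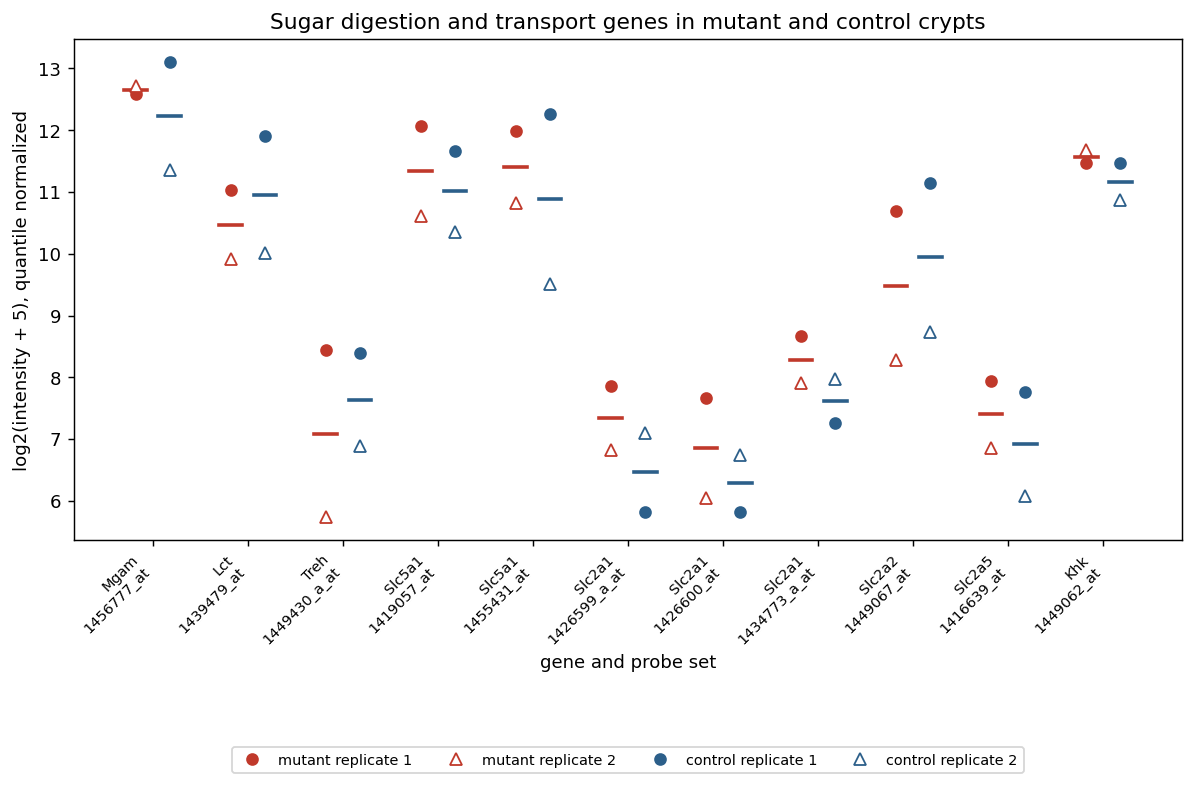
Log2(intensity + 5) of each of the 11 probe sets, with mutant arrays (red) left of control arrays (blue). Circles are replicate 1, triangles replicate 2 and bars the mean of the 2 arrays; for Lct, Treh, Slc5a1, Slc2a2 and Slc2a5 both circles lie above both triangles.

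Among the disaccharidase genes, Mgam encodes maltase-glucoamylase, which releases glucose from starch fragments. Its probe set had deposited intensities of 7402 and 7018 in mutant replicates 1 and 2, against 6923 and 2512 in control replicates 1 and 2. The 2 mutant arrays and control replicate 1 lay close together, and control replicate 2 stood well below them. On the normalized scale Mgam had 12.66 ± 0.09 in mutants and 12.23 ± 1.24 in controls (SD, n = 2 each), and the groups overlapped, since control replicate 1 was the highest array at 13.10. The difference was 0.43 (SE 0.47, 95% interval -0.66 to 1.52, limma adjusted p = 0.905). Leaving out control replicate 2 turned it to -0.42, and leaving out control replicate 1 gave 1.34.

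Lct encodes lactase, which splits milk sugar and declines after weaning in mammals. Its probe set had intensities of 2693 and 807.7 in mutant replicates 1 and 2, against 3333 and 1011 in control replicates 1 and 2. Each group thus held 1 high and 1 low array, and both replicate 1 arrays were the high ones. The normalized values averaged 10.47 ± 0.79 in mutants and 10.96 ± 1.33 in controls (SD, n = 2 each), a difference of -0.49 (SE 0.60, 95% interval -1.85 to 0.88, limma adjusted p = 0.913). The direction turned when a high control or a low mutant array was left out, to 0.46 without control replicate 1 and 0.08 without mutant replicate 2. It was -1.05 without mutant replicate 1 and -1.43 without control replicate 2.

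Treh encodes trehalase, the enzyme that splits the mushroom and insect sugar trehalose. It showed the widest spread among the disaccharidases, with intensities of 436.1 and 38.9 in mutant replicates 1 and 2, against 319.6 and 111.5 in control replicates 1 and 2. The normalized values averaged 7.09 ± 1.91 in mutants and 7.64 ± 1.07 in controls (SD, n = 2 each), and the lowest and the highest array both belonged to the mutants. The difference was -0.55 (SE 0.83, 95% interval -2.44 to 1.35, limma adjusted p = 0.936). It stood at 0.80 without mutant replicate 2, 0.20 without control replicate 1, -1.28 without control replicate 2 and -1.85 without mutant replicate 1.

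Slc5a1 encodes SGLT1, the apical glucose and galactose transporter driven by the sodium gradient. Its probe set 1419057_at had intensities of 5360 and 1338 in mutant replicates 1 and 2, against 2835 and 1274 in control replicates 1 and 2. The second probe set, 1455431_at, had 5122 and 1563 in mutant replicates 1 and 2, against 4196 and 708.7 in control replicates 1 and 2. In both probe sets the replicate 1 arrays were high, the replicate 2 arrays low, and the groups overlapped. The differences were 0.33 (SE 0.54, limma adjusted p = 0.941) and 0.52 (SE 0.77, limma adjusted p = 0.936), with 95% intervals of -0.91 to 1.56 and -1.25 to 2.28. Both turned negative without mutant replicate 1 (-0.41 and -0.08) and without control replicate 2 (-0.33 and -0.85). Without control replicate 1 they were 0.99 and 1.91, and without mutant replicate 2 they were 1.04 and 1.08.

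Slc2a5 encodes GLUT5, the apical fructose transporter. Its intensities were 304.4 and 87.3 in mutant replicates 1 and 2, against 213.1 and 59.3 in control replicates 1 and 2. Mutant replicate 1 was the highest array and control replicate 2 the lowest, yet the groups overlapped, because mutant replicate 2 lay below control replicate 1. The normalized values averaged 7.40 ± 0.76 in mutants and 6.92 ± 1.19 in controls (SD, n = 2 each), a difference of 0.48 (SE 0.60, 95% interval -0.88 to 1.84, limma adjusted p = 0.914). The direction turned without mutant replicate 1 (-0.06) and without control replicate 2 (-0.35), and the value was 1.37 without control replicate 1 and 1.02 without mutant replicate 2.

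Slc2a2 encodes GLUT2, the low-affinity basolateral transporter of glucose and fructose, which pancreatic beta cells also express. Its intensities were 2154 and 244 in mutant replicates 1 and 2, against 2033 and 420.7 in control replicates 1 and 2. Within each group the 2 arrays differed by nearly the same amount, 2.42 on the log2 scale in mutants and 2.40 in controls. The normalized values averaged 9.48 ± 1.71 in mutants and 9.94 ± 1.70 in controls (SD, n = 2 each), a difference of -0.46 (SE 0.88, 95% interval -2.48 to 1.56, limma adjusted p = 0.952). It was -1.66 without mutant replicate 1, -1.67 without control replicate 2, 0.74 without control replicate 1 and 0.74 without mutant replicate 2.

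Mutant replicate 1 also carried pancreatic transcripts, which bear on any member that the pancreas expresses, among them Slc2a2 of islets. The summed deposited intensity of 12 measured acinar genes was 97731 and 1067 in mutant replicates 1 and 2, against 1498 and 1733 in control replicates 1 and 2. The islet hormone gene Ins2 had a log2 signal of 9.15 and 5.36 in mutant replicates 1 and 2, against 3.74 and 4.33 in control replicates 1 and 2. The islet gene Iapp had 10.17 and 5.99 in mutant replicates 1 and 2, against 6.68 and 5.58 in control replicates 1 and 2. Over the islet list, 5 of 9 measured genes passed the filter and the summed intensity was 2923 and 470.6 in mutants, against 519.6 and 356.0 in controls. Slc2a2 was at 10.69 in mutant replicate 1 and at 11.15 in control replicate 1 on the normalized scale, while by deposited intensity it had 2154 in mutant replicate 1 and 2033 in control replicate 1. The part of islet RNA in the Slc2a2 values was not tested, nor that of pancreatic RNA in the normalized values of the other members.

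Slc2a1 encodes GLUT1, the basal glucose transporter of many proliferating cells and of endothelium. Its arrays followed another order. Its brightest probe set, 1434773_a_at, had intensities of 524.4 and 185.4 in mutant replicates 1 and 2, against 154.1 and 246.6 in control replicates 1 and 2. Probe set 1426599_a_at had 288.0 and 85.1 in mutant replicates 1 and 2, against 60.8 and 132.2 in control replicates 1 and 2. Probe set 1426600_at had 247.7 and 48.8 in mutant replicates 1 and 2, against 60.8 and 100.8 in control replicates 1 and 2. In all 3 probe sets mutant replicate 1 was highest, and on the normalized scale mutant replicate 2 fell between the 2 controls, so the groups overlapped. The differences were 0.67 (SE 0.42), 0.88 (SE 0.53) and 0.57 (SE 0.57), with limma adjusted p-values of 0.825, 0.822 and 0.890. Without mutant replicate 1 they stood at 0.28, 0.34 and -0.24, and without control replicate 2 at 1.02, 1.49 and 1.01. Without control replicate 1 they were 0.32, 0.24 and 0.11. Without mutant replicate 2 they were 1.04, 1.41 and 1.40. Markers of red cells and endothelium were also read. Of 8 listed red cell genes only 4 had a probe set naming 1 gene alone, and 0 of these passed the filter. Their summed intensity was 24.8 and 17.0 in mutants, against 45.5 and 23.1 in controls. With the rest of the list unmeasured, the amount of red cell RNA cannot be judged from them. Of 8 endothelial genes 5 passed, and their summed intensity was 377.1 and 293.3 in mutants, against 318.3 and 254.5 in controls. Of the 5 kept endothelial genes 3 were higher and 2 lower in mutants by their means, with a median difference of 0.009. Plvap (0.65) and Cldn5 (0.88) had the largest differences and were named after their values were seen. For both genes the mutant arrays stood above the controls (limma adjusted p = 0.802 and 0.799). The part of endothelium in the Slc2a1 signal was not tested, nor that of the pancreatic RNA in mutant replicate 1.

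Khk encodes ketohexokinase, which phosphorylates fructose as the first step of its use in the cell. Its intensities were 3648 and 3043 in mutant replicates 1 and 2, against 2464 and 1824 in control replicates 1 and 2. Both mutant arrays stood above both control arrays, and Khk had the narrowest interval of the 11 probe sets. On the normalized scale the gap nearly closed, with 11.47 in mutant replicate 1 and 11.46 in control replicate 1. The averages were 11.57 ± 0.14 in mutants and 11.17 ± 0.42 in controls (SD, n = 2 each), a difference of 0.41 (SE 0.29, 95% interval -0.25 to 1.06, 1.32-fold, limma adjusted p = 0.854). It was 0.11 without control replicate 2, 0.29 without mutant replicate 2, 0.52 without mutant replicate 1 and 0.72 without control replicate 1. The values as deposited added Mgam to Khk as a probe set with groups that did not overlap.

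**Figure D2:**
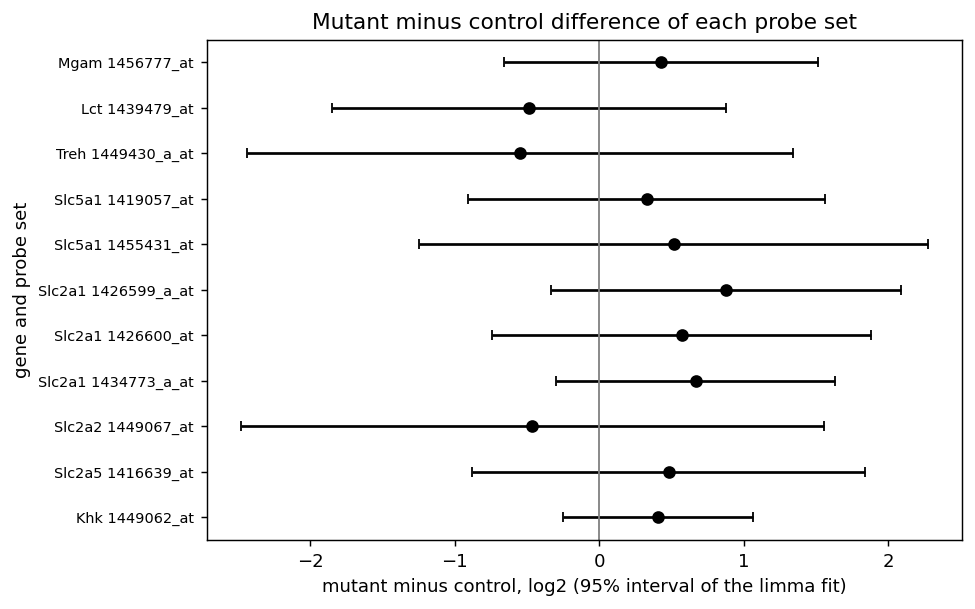
Mutant minus control difference (x axis, log2) of each of the 11 probe sets (y axis). Points are limma estimates from 2 mutant and 2 control arrays and bars their 95% intervals; every interval includes 0, with Khk the narrowest (-0.25 to 1.06) and Slc2a2 the widest (-2.48 to 1.56).

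The spread between arrays of the same group was larger than the difference between groups for most members. In 7 of 11 probe sets the mean gap between the arrays numbered 1 and those numbered 2 exceeded the mutant minus control difference in size, against 48.4% of all kept probe sets. This gap is signed and averaged over both groups, so gaps in opposite directions cancel. In 6 of 11, those of Lct, Treh, Slc5a1 (both probe sets), Slc2a2 and Slc2a5, replicate 1 was higher than replicate 2 in both groups. The same held for 22.8% of all kept probe sets. The mean gap was over 1 log2 unit in each of these 6 probe sets, against 3.09% of all kept probe sets with a gap of this kind. It was 2.41 for Slc2a2, 2.10 for Treh, 1.96 and 1.39 for Slc5a1, 1.50 for Lct and 1.38 for Slc2a5. For Khk it was 0.20, and for the 3 Slc2a1 probe sets it lay between -0.12 and 0.36. In these the groups went opposite ways. Replicate 1 minus replicate 2 was -0.20 in mutants and 0.59 in controls for Khk. For Slc2a1 (1434773_a_at, 1426599_a_at and 1426600_at) it was 0.77, 1.04 and 1.63 in mutants, against -0.71, -1.28 and -0.92 in controls. The labels do not say that a number marks a shared animal, litter or batch.

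**Figure D3:**
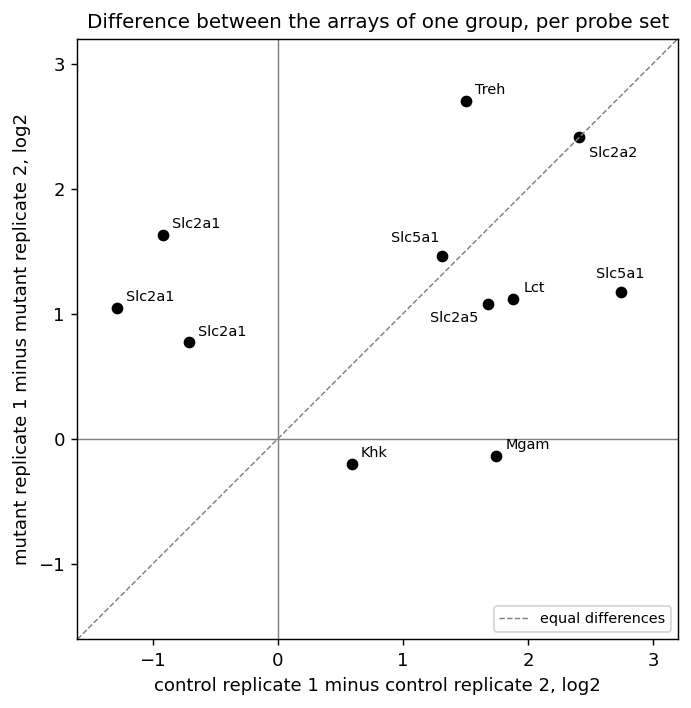
Log2 difference between mutant replicates 1 and 2 (y axis) and between control replicates 1 and 2 (x axis) for each of the 11 probe sets, 1 point per probe set; the dashed line marks equal differences. Slc2a2 lies on that line at 2.42 and 2.40, Slc2a1 lies left of 0 in all 3 probe sets, and Mgam and Khk lie just under 0 on the y axis.

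Other absorptive cell genes shared this order of arrays. Of 21 villus enterocyte genes, all of which passed the filter, 14 were higher in replicate 1 than in replicate 2 in both groups and 0 were lower in both. Their summed intensity was 117024 and 72818 in mutant replicates 1 and 2, against 71003 and 57196 in control replicates 1 and 2. All such sums are of deposited values on unscaled arrays. The trimmed means of these arrays were 169.5 and 111.0 in mutants, against 130.5 and 130.2 in controls. The normalized mean of the villus genes was 11.41 and 10.52 in mutant replicates 1 and 2, against 11.12 and 10.37 in control replicates 1 and 2. Of 6 lymphocyte genes kept by the filter, 6 had this order, and the sums over the 7 measured were 4586 and 714.7 in mutants, against 2156 and 731.7 in controls. The beta-actin control probe sets at the 5′ and 3′ ends of the transcript gauge RNA length, and their 5′ over 3′ ratio was 0.0945 and 0.0448 in mutant replicates 1 and 2, against 0.149 and 0.0567 in control replicates 1 and 2. The part of villus tissue, lymphocytes and RNA length in the order of the sugar genes was not tested. A list of 9 crypt genes, of the crypt base and with Mki67 and Pcna of dividing cells, did not share this order. All 9 were lower in mutants by their means, and 1 was higher in replicate 1 in both groups. The sums were 18402 and 18362 in mutants, against 18727 and 24994 in controls.

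Markers of gut segment, along which lactase and sugar transporter genes are known to vary, were unevenly placed. Slc40a1, the iron exporter of the duodenum, had a log2 signal of 9.29 and 6.39 in mutant replicates 1 and 2, against 10.78 and 10.44 in control replicates 1 and 2. Pdx1, a duodenal and pancreatic transcription factor gene, had 6.63 and 3.03 in mutants, against 5.85 and 6.74 in controls. With differences of -2.77 and -1.47, Slc40a1 and Pdx1 were the lowest of the 9 proximal genes and were named after their values were seen. The duodenal hormone genes Gip and Sct differed the other way, by 0.59 and 0.85, with both mutant arrays above both controls. Of 9 proximal genes 3 were higher and 6 lower in the mutants. Their summed deposited intensity was 18088 and 16420 in mutants, against 12100 and 15682 in controls. Most of it came from Fabp1, also in the villus list, with 11440 and 12950 in mutants, against 7833 and 10060 in controls. The normalized mean of the 9 genes was 8.80 and 7.48 in mutant replicates 1 and 2, against 8.61 and 8.88 in control replicates 1 and 2. Of the 8 measured distal genes 5 passed the filter and all 5 were higher in mutants, with sums of 991.7 and 942.4 in mutants, against 575.2 and 324.5 in controls. None of these genes passed the test over all probe sets, and the part of gut segment in the sugar gene values was not tested.

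Profiles over the 4 arrays were compared by the root mean square difference of mean-centred log2 values, among 11395 genes with 1 probe set each. Among members, Slc5a1 and Slc2a5 were most alike (0.20), followed by Treh and Slc2a2 (0.34), while Slc2a1 and Slc2a2 were least alike (1.37). The nearest genes to Slc2a2 were Slc13a1 (0.07), Mme (0.18) and Cyp2b10 (0.21), and 4 genes in all lay within 0.25. Treh had 3 genes within 0.25, with Kalrn the nearest (0.15), followed by Cd3g (0.16) and Ccng2 (0.23). Lct had 22 within 0.25, Slc2a5 52, Mgam 64, Slc5a1 67, Slc2a1 368 and Khk 1211, so the profiles of Slc2a1 and Khk were shared by many genes. Hspa1b was nearest to Mgam (0.08), Pcmtd2 to Lct (0.08), Utp14b to Slc5a1 (0.14), Gnai1 to Slc2a1 (0.03), Pmaip1 to Slc2a5 (0.04) and Star to Khk (0.01). With 4 arrays such likeness is a description only.

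**Figure D4:**
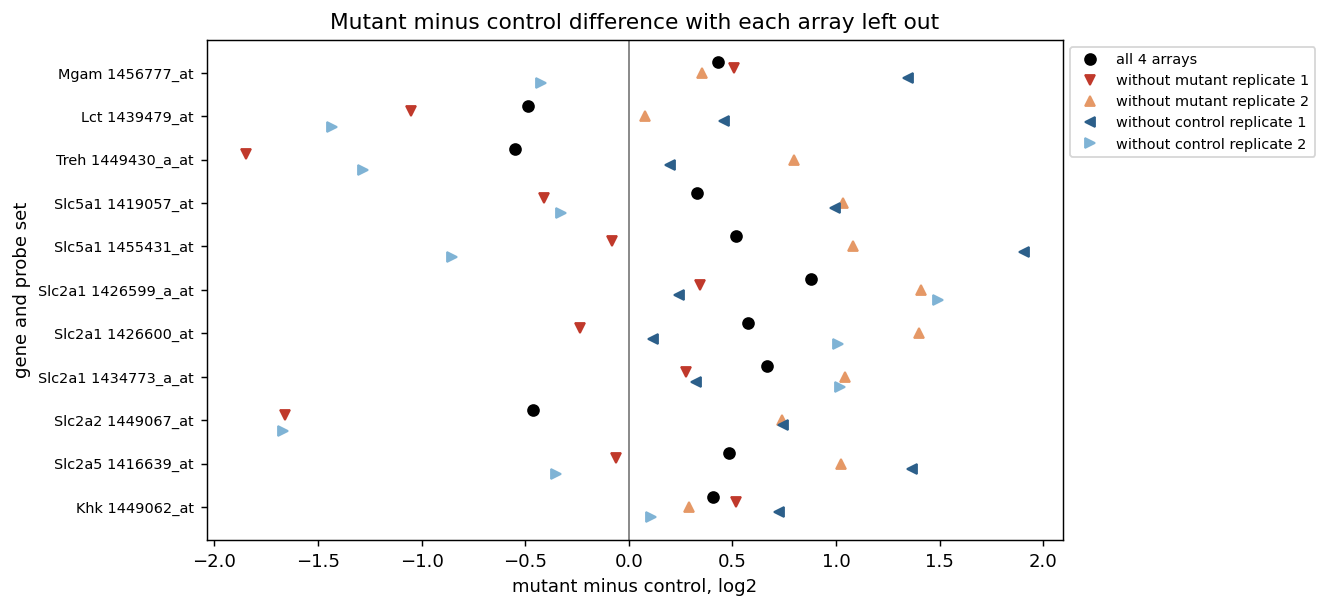
Mutant minus control difference (x axis, log2) of each of the 11 probe sets (y axis) with all 4 arrays (black circles) and with each array left out in turn (coloured triangles). Khk and 2 of the 3 Slc2a1 probe sets stay right of 0 in all 5 cases; the other 8 probe sets cross 0.

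Other genes of sugar uptake and use also gave no call. Of 65 genes listed for other transporters, sugar metabolism and regulators, 51 were measured and 44 of these passed the filter. Of the 44, 31 were higher and 13 lower by their means, and 0 passed the test (limma), against 0% of 11395 genes. The groups did not overlap in 13 genes that were higher and 4 that were lower, against 18.9% and 19.2% of all genes. Among 13 other transporter genes, 11 were higher and 2 lower, with a median difference of 0.75 against 0.01 over all genes. In 7 of the 13 both mutant arrays stood above both controls.

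Slc2a9 encodes a urate and hexose transporter. Its intensities were 314.1 and 228.0 in mutant replicates 1 and 2, against 130.9 and 86.8 in control replicates 1 and 2. The difference was 1.29 (SE 0.36, 2.45-fold, limma adjusted p = 0.767), and it lay between 1.05 and 1.57 over 13 other settings. The other probe set of Slc2a9 is dim and stood at 2.09. It had 64.8 and 44.5 in mutant replicates 1 and 2, against 26.4 and 2.29 in control replicates 1 and 2. Slc2a8 encodes an intracellular hexose and trehalose transporter. It had dim intensities of 55.2 and 40.5 in mutant replicates 1 and 2, against 9.37 and 12.8 in control replicates 1 and 2. Its difference was 1.80 (SE 0.48, limma adjusted p = 0.767), and it fell below the filter when either mutant array was left out. The inositol transporter gene Slc2a13 differed by 1.04 (SE 0.46) and Slc5a9, which encodes the mannose transporter SGLT4, by 0.92 (SE 0.45), with limma adjusted p = 0.788 for both. This probe set of Slc5a9 stood at 0.48 without mutant replicate 1 and 0.51 without control replicate 2. A second kept Slc5a9 probe set stood at 0.51, with both mutant arrays above both controls. Further ones below the filter stood at 0.58 and 0.91, with overlapping groups. Slc5a4b, a gene of the SGLT3 glucose sensors, had 312.7 and 148.8 in mutant replicates 1 and 2, against 204.6 and 49.4 in control replicates 1 and 2, with overlapping groups.

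Enzymes that handle the absorbed sugars gave a median of 0.16 over 16 genes, with 11 higher and 5 lower. Fbp1 and Fbp2 encode fructose bisphosphatases of gluconeogenesis. Fbp1 had 764.6 and 599.1 in mutant replicates 1 and 2, against 1028 and 1007 in control replicates 1 and 2, with both mutant arrays below both controls. Its difference was -0.74 (SE 0.31, limma adjusted p = 0.786), and that of Fbp2 was -0.31 (SE 0.26, limma adjusted p = 0.870), which turned to 0.026 with median centring and was -0.17 without control replicate 1. With median centring Fbp1 stood at -0.47. Galm, which encodes the mutarotase that feeds galactose into its pathway, differed by 0.56 (SE 0.30), while 2 further probe sets of Galm stood at 1.29 and 0.29. Tkfc, whose triokinase acts after Khk on fructose, differed by 0.35 (SE 0.36). Galm stood at 0.34 without control replicate 2, and Tkfc at 0.16 without mutant replicate 1 and 0.54 without mutant replicate 2.

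Among 15 regulators 9 were higher and 6 lower, with a median of 0.17. Arrdc4 and Txnip are known targets of the glucose-responsive factors that pair with Mlx. Arrdc4 had 329.4 and 291.4 in mutant replicates 1 and 2, against 123.1 and 165.5 in control replicates 1 and 2, a difference of 1.12 (SE 0.38, 2.17-fold, limma adjusted p = 0.767). A second kept Arrdc4 probe set stood at 0.55, with overlapping groups. Txnip had 2444 and 2359 in mutant replicates 1 and 2, against 1084 and 1698 in control replicates 1 and 2, a difference of 0.62 (SE 0.32, limma adjusted p = 0.798). Leaving out mutant replicate 2 gave 0.38 and leaving out control replicate 1 gave 0.34, and a second Txnip probe set, below the filter, stood at -0.27. Mlx itself differed by 0.75 (SE 0.33, limma adjusted p = 0.788), and a second Mlx probe set stood at -0.30. For these 3 genes both mutant arrays exceeded both control arrays, in the probe set with the highest mean. Mlxipl, which encodes ChREBP, differed by -0.05 (SE 0.33). Of the factors known to act on sugar gene promoters, Cdx2 differed by -0.08 (SE 0.44), Hnf4a by 0.15 (SE 0.27) and Gata4 by -0.17 (SE 0.48), whereas the forkhead gene Foxa2 differed by -0.99 (SE 0.39, limma adjusted p = 0.786).

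**Figure D5:**
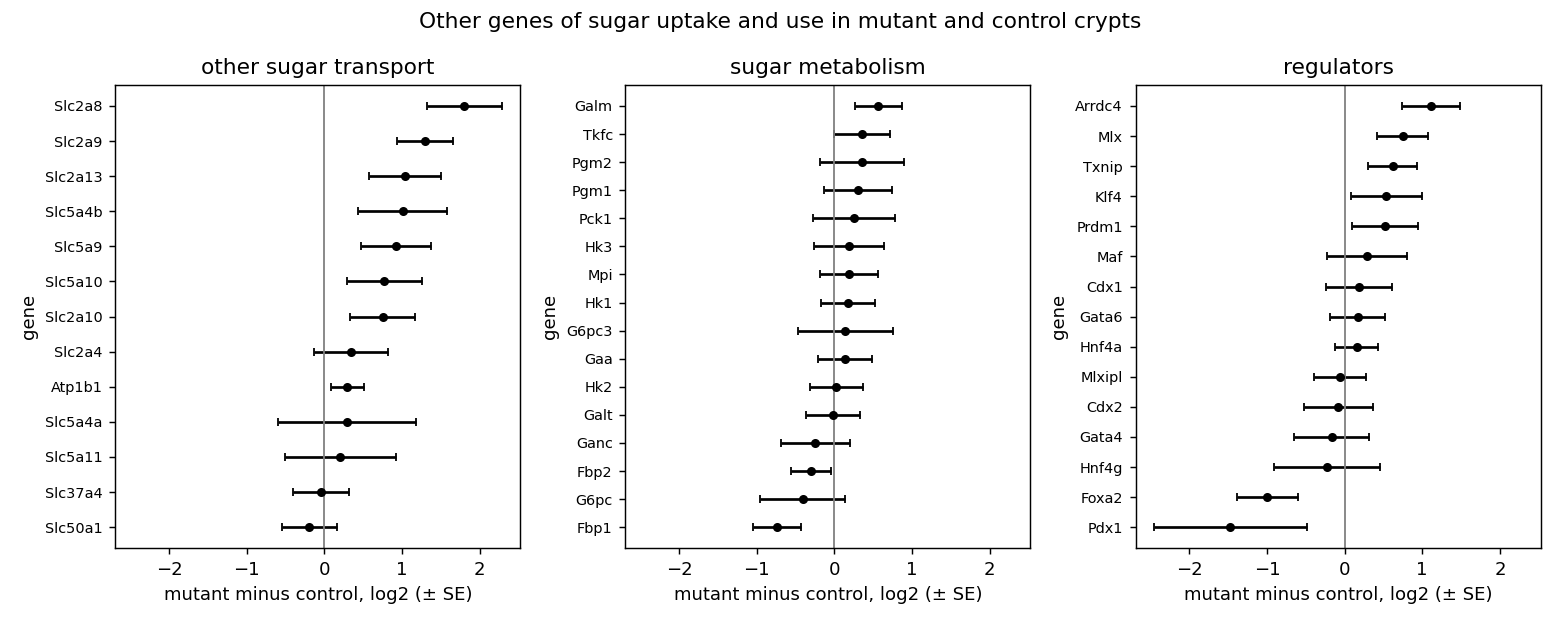
Mutant minus control difference (x axis, log2) of the 44 other genes kept by the filter (y axes), as points with the SE of the limma fit, in 3 panels for other transporters, sugar metabolism and regulators. Slc2a8 (1.80) and Slc2a9 (1.29) lead the transporters, Fbp1 is lowest of the enzymes (-0.74), and Arrdc4 (1.12) leads the regulators.

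Array-wide values set the limits of these comparisons. The brighter Ctnnb1 probe set, which reads the deleted gene, had intensities of 5229 and 3449 in mutants, against 4700 and 5997 in controls, and the normalized difference was -0.56 (SE 0.22, limma adjusted p = 0.786). A dimmer kept probe set of Ctnnb1 had 65.3 and 38.1 in mutants, against 29.7 and 59.7 in controls, with overlapping groups and a difference of 0.38 (SE 0.50), and the remaining one did not pass the filter. The labels do not give the deleted exons, so a probe set outside them checks nothing. The correlation between arrays across kept probe sets, which are not independent replicates, lay between 0.912 and 0.936. It was 0.918 between the 2 mutants and 0.932 between the 2 controls. The lowest and the highest value were both between a mutant and a control array, so the arrays did not group by genotype. The number of arrays limits the precision, and the intervals of the 11 probe sets ran as low as -2.48 and as high as 2.28 on the log2 scale.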

How the data were processed

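The authors deposited 1 table of linear intensities per probe set, produced by MAS5 per the submitters' processing notes. No source used here states its version or scaling target. The method subtracts mismatch signal, so dim values are noisy, and 2 rounds of amplification favour 3′ ends. Of 45101 probe sets, 64 controls were left out of tests. The platform annotation gave 34945 of the rest 1 gene symbol, 932 several and 9160 none; gene identifiers updated 0 symbols. Trimmed means (2%) of the arrays differed by up to 1.53 times, past the limit of 1.1, so log2(intensity + 5) was quantile normalized; 5 is the rounded 20th percentile. Probe sets at or above the 50th percentile of mean log2 (4.79) were kept. Mutant and control were compared with limma 3.58.1 (R 4.3.3; lmFit, eBayes with intensity trend, 2 residual and 6.42 prior degrees of freedom), two-sided, with Benjamini-Hochberg adjustment over 22519 probe sets and a threshold of 0.05. The fit was tested on simulated data. A gene outside the members was represented by its brightest probe set. Named genes were all members, the 4 of each pathway list with the smallest p, and set markers; Slc5a4b, Mlxipl, Cdx2, Hnf4a, Slc40a1, Pdx1, Gip, Sct, Plvap and Cldn5 were added after their values were seen. Members and lists were chosen with earlier results of these data known. Alternatives were other scalings, pseudocounts, filters and variance models, a replicate block and each array left out.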

Additional observations from a re-analysis of the deposited data

How the results depend on the processing

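No member and no gene of the pathway lists passed the test under any of the 13 alternatives, in which the smallest adjusted p of a member was 0.325. Over the whole array 0 probe sets passed in the main analysis, 2 when the deposited values were left unscaled and 102 with median centring. With the replicate block 1 probe set passed; deviations of same-numbered arrays correlated by 0.034, so the numbers were not taken as pairs, and the block changed no call of a member. Member probe sets with groups that did not overlap numbered 1 of 11 in the main analysis (36.2% of all probe sets) and 2 under either of these scalings (29.1% as deposited, 29.2% with median centring). With each array left out in turn, which leaves a lone array assumed to vary like the others, 0 to 90 probe sets passed over the whole array (20 without mutant replicate 1 and 90 without mutant replicate 2). The groups then did not overlap in 4 to 8 of 11 member probe sets, against 66.2% to 71.2% of all probe sets, and the member median ran from -0.35 to 1.02. The same left-out arrays gave ranges of -0.42 to 1.34 for Mgam, -1.43 to 0.46 for Lct, -1.85 to 0.80 for Treh and -0.41 to 1.04 and -0.85 to 1.91 for the Slc5a1 probe sets. They gave -0.24 to 1.40 for Slc2a1 (1426600_at), -1.67 to 0.74 for Slc2a2 and -0.35 to 1.37 for Slc2a5. Apart from the arrays left out, no alternative turned the direction of a member, and median centring turned Fbp2 to 0.026. The causes were not tested.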
